A study of Mus musculus with 10 samples.

Results

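The 41 genes described here encode lysosomal hydrolases, proteins that activate, assist or inhibit them and proteins that sort them to the lysosome. They were taken from a list of names and a limit on the total count, with no comparison between the groups in the rule, as rows of the count tables whose Ensembl identifier carries one of 41 listed symbols and whose total over all libraries exceeded 10. The names were chosen with earlier results of these data known. All 41 symbols were found and all 41 passed that limit, so that the 41 genes are a subset of the 19268 genes tested. RNA was measured in the cortex of the right hemisphere of perfused female mice aged 4 months, with 5 libraries per group. The group labelled 5XFAD held littermate controls that carry the 5XFAD transgenes, human genes with mutations of familial Alzheimer's disease under mouse Thy1 sequence. Their titles hold the word WT, which a legend of the study explains as wild type for Idol. Whether they carry floxed Idol alleles without Cre is not said. The group labelled 5XFAD;Neu cKO carried the same transgenes together with a floxed Idol (Mylip) gene and Camk2a-Cre, a postnatal driver of recombination in excitatory forebrain neurons. This driver is not meant to act in glia, and the whole cortex, with all its cell types, was used for RNA. Idol encodes a ubiquitin ligase that marks lipoprotein receptors for degradation, and the comparison asked which transcripts differed in the cortex of amyloid-bearing mice when neurons were labelled as lacking it.

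Lysosomal hydrolases are made in the endoplasmic reticulum and receive mannose 6-phosphate in the Golgi, a tag that a phosphotransferase (Gnptab, Gnptg) begins and that the receptors encoded by M6pr and Igf2r recognise. Sortilin, encoded by Sort1, carries other cargo, among it prosaposin and progranulin, without that tag. Several hydrolases need a partner to reach their lipid substrate, such as the saposins cut from prosaposin, and all sulfatases need the enzyme encoded by Sumf1. Loss of single hydrolases causes lysosomal storage diseases, most of which affect the brain. Many of these genes carry a palindromic sequence near their start, the CLEAR element, to which the transcription factors TFEB, TFE3 and MITF bind.

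The promoter sequences that hold such letters are shown because the element links genes of this family. In the 250 bases before the annotated start of the canonical transcript, on GRCm39, the 6 letters CACGTG stood in 5 of the 41 genes (12.2%) and in 7.48% of 14654 protein-coding genes tested. The longer TCACGTGA, which contains the first, stood in 3 (7.32%) and in 0.990% of all. Each is its own reverse complement, so that 1 search covers both strands. These shares are descriptions of letters, not of binding, and only 1 start per gene was searched. The windows of 30 bases below are written 5′ to 3′ on the strand of the gene, with the longer of the motifs found there in capitals.
Dnase2a, chr8:85635109-85635138, plus strand: cgccttagaagTCACGTGAcagccaatgcc
Gla, chrX:133501931-133501960, minus strand: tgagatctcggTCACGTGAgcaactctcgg
Igf2r, chr17:12988624-12988653, minus strand: gaacgaggacgTCACGTGAgcaggaggcgg
Gaa, chr11:119158637-119158666, plus strand: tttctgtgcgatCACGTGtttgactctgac
Glb1, chr9:114230086-114230115, plus strand: ctgcttctgagtCACGTGgcctacagaggc
The CACGTG letters began 68 bases before the start of Dnase2a, 44 before that of Gla, 27 before that of Igf2r, 64 before that of Gaa and 46 before that of Glb1, where the start of Gaa is base 119158713, a few bases inside the annotated gene. The window of Gla also lies in the first exon of Hnrnph2, which runs the other way. Of these 5 genes only Gaa reached an unadjusted p under 0.05 in the comparison below.

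Reads counted on genes numbered 4320504 to 7466192 per 5XFAD library and 5148499 to 7246659 per library labelled 5XFAD;Neu cKO. Mylip, the targeted gene, was not lower as its label would have it, with 9.69, 12.4, 14.7, 9.32 and 10.1 CPM (counts scaled to the size of the library) in the 5XFAD libraries and 14.4, 14.3, 19.4, 18.8 and 7.18 CPM in those labelled 5XFAD;Neu cKO. The groups overlapped, and the log2 fold change was 0.39 ± 0.248 (SE), with an adjusted p of 0.777 by the quasi-likelihood test of edgeR after Benjamini-Hochberg adjustment. These libraries read only the 3′ end of a transcript, and which exon is floxed is not given in the sources used here, so that reads from outside the deleted part would check nothing. The study itself measured Idol mRNA by qPCR in the cortex and reported it significantly lower in 5XFAD;Neu cKO mice. The group is called by its label here.

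None of the 41 genes passed an adjusted p of 0.05 in edgeR, where 42 of 19268 genes did (0.218%), and none did in DESeq2, where 73 did (0.379%). With no filter on low counts 2 of the 41 passed in edgeR, Grn and Fuca1, and 103 genes in all. DESeq2 gave an adjusted p for 23 of the 41 and none for the other 18. At an unadjusted p under 0.05, edgeR had 7 of the 41 (17.1%, against 7.95% of all genes), of which 6 were lower (14.6%, against 4.01%) and 1 was higher (2.44%, against 3.94%) in the group labelled 5XFAD;Neu cKO. Among all genes with a mean of 10 CPM or more these edgeR shares were larger, at 10.4%, with 5.58% lower and 4.78% higher. DESeq2 had 7 lower and 0 higher of the 41 at that limit. For none of the 41 were the groups fully apart, which was so for 1.3% of all genes. The log2 fold change, given throughout for the libraries labelled 5XFAD;Neu cKO against 5XFAD, was below 0 for 26 genes and above 0 for 15 (63.4% below, against 50.1% of all genes). Its median was -0.10, against -0.00056 over all genes, and it ran from -0.66 for Grn to 0.42 for Arsa. The 95% interval included 0 for 34 genes, lay within a 1.5-fold difference either way for 21 and within 2-fold for 35. Microglial markers moved with the groups too, with a summed level of 336 to 499.5 CPM in the 5XFAD libraries and 236 to 286 CPM in the others, and their part in these values was not tested.

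**Figure D1:**
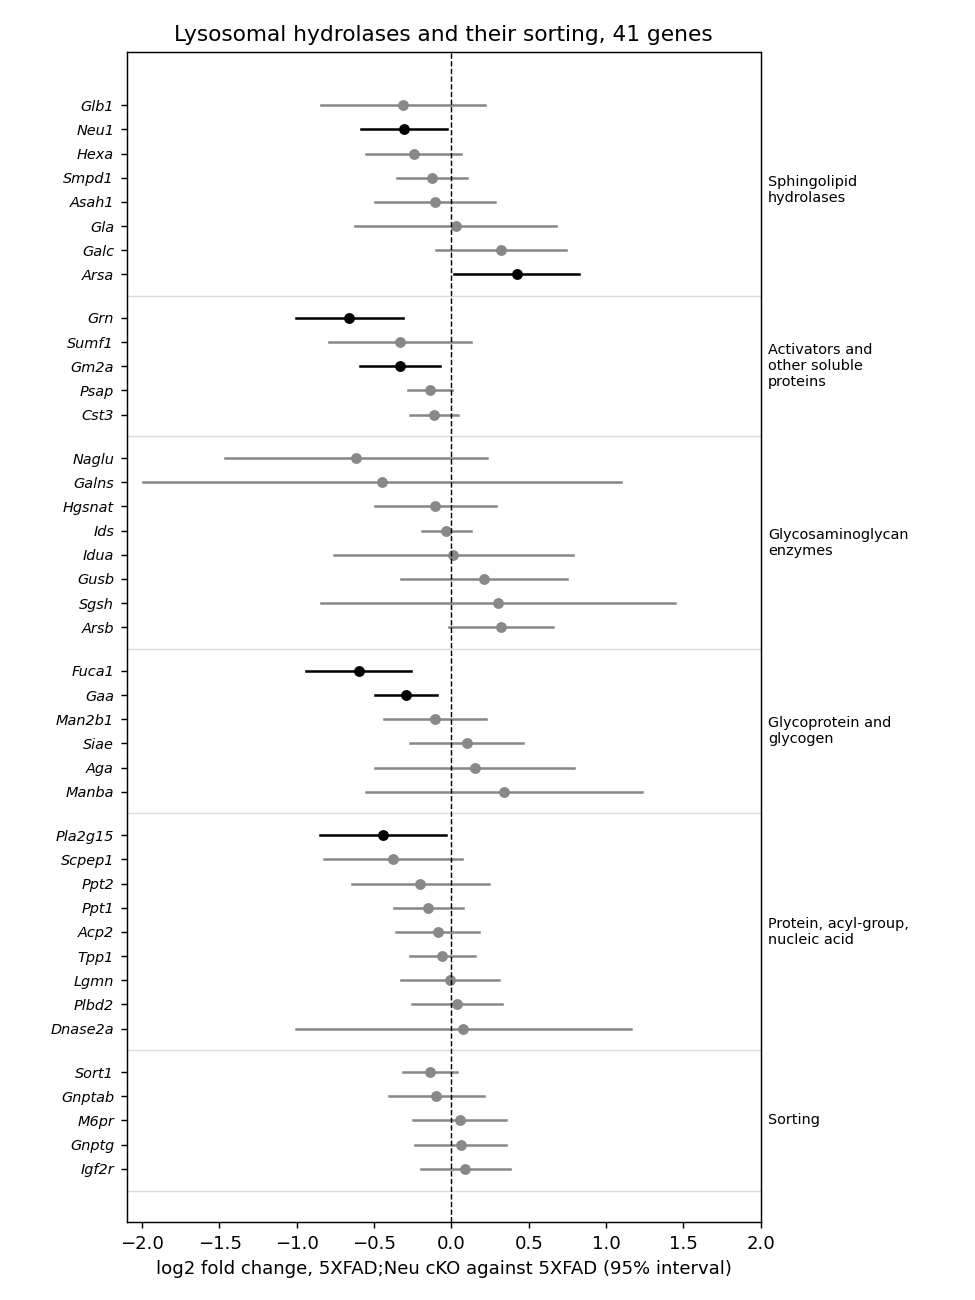
Log2 fold change of the 41 genes, libraries labelled 5XFAD;Neu cKO against 5XFAD (5 per group, edgeR), with 95% intervals as horizontal lines, grouped by role. Black marks the 7 genes with an unadjusted p under 0.05, of which Arsa alone lies above 0, and intervals are widest for genes with few counts, such as Galns.

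The depth behind these values differed widely among the genes. Cst3 was counted 91381 times over the 10 libraries and Galns 92 times, with 0 counts of Galns in 1 library. A 3′ count does not grow with transcript length, so that CPM need no correction for it. Overlapping genes and sequence shared with other genes can still alter a count, so that an order of genes by CPM is approximate. In CPM, Cst3 led with 1658 in the 5XFAD libraries, followed by Psap at 663, Ids at 289 and Sort1 at 189. Galns, Idua, Sgsh, Manba and Dnase2a lay under 5 CPM in both groups. For Galns the log2 fold change had a standard error of 0.771 and a 95% interval from -1.996 to 1.10, so that differences within it were not detectable at this depth.

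Reads can also come from a gene on the other strand, or be set aside as ambiguous with it, since the strand setting is not stated. Exons of 22 of the 41 genes overlap a gene on the opposite strand, and for 7 the overlapping genes had more counts than the member itself. These are totals of whole genes, not of the overlaps, so that the values are uncertain by an amount that was not tested. These were Gla with 423 counts against 7941, Ppt2 with 826 against 3529, Grn with 1942 against 4481, Gusb with 624 against 1358, Dnase2a with 154 against 1127, Idua with 296 against 1081 and Sgsh with 146 against 310.

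The activators and other soluble proteins, among them the inhibitor encoded by Cst3, stood lower in the group labelled 5XFAD;Neu cKO for all 5 genes. Their median log2 fold change was -0.33, and 2 of the 5 had an unadjusted p under 0.05 in edgeR. Grn (ENSMUSG00000034708, GRCm39 chromosome 11, 102321141 to 102327874) encodes progranulin, a secreted precursor that is cut to granulins in the lysosome. It was at 44.4, 56.3, 32.6, 41.6 and 39.1 CPM in the 5XFAD libraries and 20.4, 38.3, 28.8, 32.3 and 15.5 CPM in those labelled 5XFAD;Neu cKO. Only replicate 3 of the 5XFAD libraries lay below the highest library of the other group, replicate 2. The means were 42.8 ± 8.73 and 27.0 ± 9.13 CPM (SD, n = 5, as for all means here). The log2 fold change was -0.66 ± 0.173 (SE), and its p of 0.000366 was the 70th smallest of all genes tested (adjusted p = 0.0994 in edgeR, 0.0906 in DESeq2). Relabelling the 10 libraries in an exact permutation test, two-sided, gave p = 0.0159, where 0.0079 is the smallest it can give. The edgeR result passed the threshold without 5XFAD replicate 3 (adjusted p = 0.0459) and without 5XFAD;Neu cKO replicate 2 (0.0218), and had an adjusted p of 0.477 without 5XFAD replicate 2, the highest library. With no filter on low counts it was 0.00624. The gene that Grn overlaps on the opposite strand is Fam171a2.

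Gm2a (ENSMUSG00000000594, chromosome 11, 54988883 to 55003855) encodes the activator that presents the ganglioside GM2 to the hexosaminidase that Hexa encodes in part. Its values were 60.7, 56.3, 46.6, 60.02 and 53.6 CPM in the 5XFAD libraries and 46.2, 48.9, 44.6, 46.1 and 34.5 CPM in those labelled 5XFAD;Neu cKO. The overlap came from 5XFAD replicate 3 alone, which lay below 5XFAD;Neu cKO replicate 2. The means were 55.4 ± 5.71 and 44.1 ± 5.58 CPM, and the log2 fold change was -0.33 ± 0.129 (SE, adjusted p = 0.449 in edgeR).

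Psap, which encodes prosaposin, the precursor of the saposins, had the smallest standard error of the 41. It was at 682, 672, 673, 625 and 664 CPM in the 5XFAD libraries and 649.6, 594, 650.1, 584 and 535 CPM in those labelled 5XFAD;Neu cKO. The lowest 5XFAD library, replicate 4, lay below 2 of the other group. The log2 fold change was -0.14 ± 0.0725 (SE, adjusted p = 0.667 in edgeR), and the exact two-sided permutation test gave p = 0.0476. Cst3, which encodes cystatin C, a secreted inhibitor of cysteine cathepsins, had means of 1658 ± 240 and 1534 ± 200 CPM (log2 fold change -0.11). Its highest value, 2074 CPM, was that of 5XFAD replicate 1, without which the log2 fold change was -0.019. Sumf1, whose product forms the active-site residue of sulfatases, was at 16.0 ± 3.87 and 12.7 ± 2.83 CPM (log2 fold change -0.33, 95% interval -0.79 to 0.13).

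Of the 8 hydrolases that take apart sphingolipids, 5 were below 0 and 3 above, with a median log2 fold change of -0.12. Neu1 (ENSMUSG00000007038, chromosome 17, 35150165 to 35156292), the lysosomal sialidase, was at 66.3, 51.4, 48.1, 37.8 and 51.4 CPM in the 5XFAD libraries and 38.5, 35.9, 41.2, 45.8 and 44.4 CPM in those labelled 5XFAD;Neu cKO. The 5XFAD range was the wider, and its lowest library, replicate 4, lay among the other group. The means were 51.0 ± 10.2 and 41.2 ± 4.08 CPM, and the log2 fold change was -0.31 ± 0.137 (SE, adjusted p = 0.545 in edgeR, exact permutation p = 0.0794). It was -0.19 without 5XFAD replicate 1, the highest library, and the unadjusted p was under 0.05 in 7 of 10 fits with 1 library left out.

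Arsa (ENSMUSG00000022620, chromosome 15, 89355820 to 89361653), the sulfatase that acts on sulfatide, a lipid of myelin, was the 1 gene above 0 with an unadjusted p under 0.05. It was at 20.4, 10.6, 16.4, 20.1 and 12.1 CPM in the 5XFAD libraries and 22.6, 21.7, 16.5, 23.2 and 23.3 CPM in those labelled 5XFAD;Neu cKO. In the latter group 4 libraries lay above all 5XFAD libraries and replicate 3 among them. The means were 15.9 ± 4.49 and 21.5 ± 2.83 CPM, and the log2 fold change was 0.42 ± 0.203 (SE, adjusted p = 0.606 in edgeR, exact permutation p = 0.0556). That unadjusted p was under 0.05 in 3 of 10 fits with 1 library left out. On the opposite strand Arsa overlaps C230037L18Rik, with 221 counts, and Neu1 overlaps 1110038B12Rik, with 491. Galc, which degrades galactosylceramide, the other main glycolipid of myelin, had a log2 fold change of 0.32 with an interval from -0.10 to 0.74.

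The other 5 sphingolipid hydrolases had intervals that included 0. Hexa, the alpha subunit of the hexosaminidases, was at 38.5 ± 4.63 CPM in the 5XFAD libraries and 32.5 ± 6.92 CPM in those labelled 5XFAD;Neu cKO (log2 fold change -0.24). For Glb1, the acid beta-galactosidase, the value was -0.31, which was -0.0044 without 5XFAD replicate 2. Smpd1, the acid sphingomyelinase, was the most abundant of the 8, at 76.8 ± 8.31 and 70.4 ± 6.50 CPM (-0.13). Asah1, the acid ceramidase, had -0.10 and Gla, the alpha-galactosidase, 0.03.

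Among the 6 enzymes that degrade glycoproteins and glycogen, 3 were below 0 and 3 above, with a median of -0.0038, and the 2 with an unadjusted p under 0.05 were both lower. Fuca1 (ENSMUSG00000028673, chromosome 4, 135648004 to 135668235), which removes fucose from glycoproteins and glycolipids, was at 47.3, 50.4, 29.1, 33.6 and 29.0 CPM in the 5XFAD libraries and 26.7, 20.1, 24.6, 32.6 and 20.7 CPM in those labelled 5XFAD;Neu cKO. Replicates 1 and 2 of the 5XFAD libraries stood well above the rest, while the other 3 lay close to the highest library of the other group. The means were 37.9 ± 10.3 and 24.9 ± 5.12 CPM, and the log2 fold change was -0.60 ± 0.170 (SE), and the p of 0.000871 was the 98th smallest (adjusted p = 0.171 in edgeR, 0.0981 in DESeq2, and 0.0440 in edgeR with no filter on low counts). The exact two-sided permutation test gave p = 0.0317.

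Gaa (ENSMUSG00000025579, chromosome 11, 119158708 to 119176525), the acid alpha-glucosidase that breaks down glycogen in lysosomes, was at 109, 157, 141, 118 and 122 CPM in the 5XFAD libraries and 118, 109.6, 101, 100.6 and 98.4 CPM in those labelled 5XFAD;Neu cKO. The 5XFAD libraries spread more widely, replicate 1 lay within the other group and replicate 4 level with its highest library. The means were 129 ± 19.4 and 105.5 ± 8.05 CPM, and the log2 fold change was -0.29 ± 0.101 (SE, adjusted p = 0.354 in edgeR). The mannosidase genes Man2b1 and Manba had log2 fold changes of -0.11 and 0.34. Aga, which cuts the bond between sugar and asparagine, had 0.15, and Siae, an esterase of acetylated sialic acids, had 0.10. All of these 4 intervals included 0.

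None of the 8 enzymes that degrade glycosaminoglycans had an unadjusted p under 0.05, with 4 below 0, 4 above and a median of -0.011. Ids, which removes sulfate from iduronic acid in heparan and dermatan sulfate, was the most abundant, at 289 ± 17.2 CPM in the 5XFAD libraries and 283 ± 9.28 CPM in those labelled 5XFAD;Neu cKO. Its log2 fold change of -0.03 had an interval from -0.19 to 0.12. Arsb, the sulfatase of dermatan and chondroitin sulfate, had the smallest p of these 8, at 25.1 ± 5.27 and 31.5 ± 4.67 CPM (log2 fold change 0.32, unadjusted p = 0.0616 and adjusted p = 0.666 in edgeR). The exact permutation test gave p = 0.0952 for it. Naglu, which acts on heparan sulfate, had the lowest value of these 8, -0.61, but few reads, at 5.24 ± 2.43 and 3.40 ± 0.894 CPM, its interval ran from -1.46 to 0.23, and without 5XFAD replicate 2 the value was -0.31. The remaining values were -0.45 for Galns, -0.10 for Hgsnat, 0.01 for Idua, 0.21 for Gusb and 0.30 for Sgsh. The sulfatase products of Arsa, Arsb, Galns, Ids and Sgsh all depend on Sumf1, and their log2 fold changes lay on both sides of 0.

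Of the 9 genes for enzymes that degrade proteins, fatty acyl groups, phospholipids, phosphate esters and DNA, 7 were below 0 and 2 above, with a median of -0.089. Pla2g15 (ENSMUSG00000031903, chromosome 8, 106876653 to 106891733), a lysosomal phospholipase, was at 21.5, 18.5, 21.7, 16.4 and 18.2 CPM in the 5XFAD libraries and 17.8, 12.3, 12.3, 14.3 and 14.4 CPM in those labelled 5XFAD;Neu cKO. Only 5XFAD replicate 4 lay below the highest library of the other group, replicate 1. The means were 19.3 ± 2.29 and 14.2 ± 2.22 CPM, and the log2 fold change was -0.44 ± 0.203 (SE, adjusted p = 0.560 in edgeR, exact permutation p = 0.0159). The unadjusted p was under 0.05 in 6 of 10 fits with 1 library left out. In the last 300 bases of its transcript lies a stretch that at least 134 other genes share, from a search that capped its hits. Each match had 90% identity or more over at least 60 bases. Its count is therefore uncertain, and an effect of the stretch on it was not tested.

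The other 8 genes of this group had intervals that included 0. Tpp1, a tripeptidyl peptidase, and Ppt1, a thioesterase that removes palmitate from proteins, are both genes of neuronal ceroid lipofuscinosis. Tpp1 was at 92.5 ± 10.5 and 88.8 ± 4.14 CPM (log2 fold change -0.06) and Ppt1 at 82.6 ± 9.20 and 74.4 ± 7.85 CPM (-0.15). Lgmn, an asparaginyl endopeptidase that processes cathepsins, was at 40.5 ± 12.6 and 40.5 ± 6.71 CPM, and the log2 fold change was -0.01, with an interval from -0.32 to 0.31. The values were -0.38 for Scpep1, a carboxypeptidase, -0.20 for Ppt2, a second thioesterase, and -0.09 for Acp2, an acid phosphatase. They were 0.04 for Plbd2, a phospholipase B-like protein, and 0.08 for Dnase2a, the acid endonuclease, which was at 2.51 and 2.68 CPM.

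**Figure D2:**
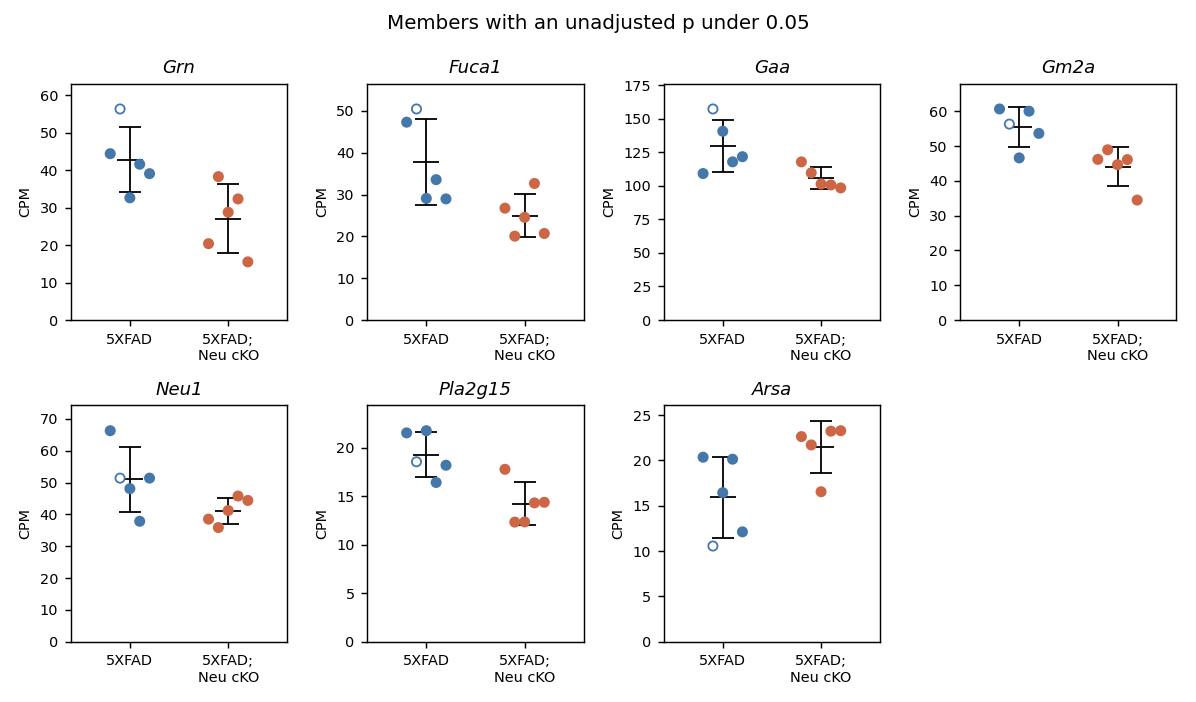
Levels (CPM) of the 7 genes with an unadjusted p under 0.05, 1 point per library, 5 per group, with the mean and SD as black bars and axes from 0. The open circle is 5XFAD replicate 2, the highest 5XFAD library for Grn, Fuca1 and Gaa and the lowest for Arsa, and in no panel are the groups fully apart.

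The 5 genes of sorting gave no unadjusted p under 0.05, with 2 below 0, 3 above and a median log2 fold change of 0.05. Sort1 (ENSMUSG00000068747, chromosome 3, 108191285 to 108268842), which encodes sortilin, was the most abundant, at 213, 184, 182, 176 and 192 CPM in the 5XFAD libraries and 186, 180.1, 158, 173 and 164 CPM in those labelled 5XFAD;Neu cKO. The groups overlapped in their middle. The means were 189 ± 14.4 and 172 ± 11.5 CPM, a log2 fold change of -0.14 with an interval from -0.31 to 0.04 (adjusted p = 0.778 in edgeR, exact permutation p = 0.0635).

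The phosphotransferase that starts the mannose 6-phosphate tag has its catalytic part from Gnptab (ENSMUSG00000035311, chromosome 10, 88214994 to 88283191). It was at 34.3, 30.3, 30.4, 37.1 and 31.0 CPM in the 5XFAD libraries and 25.2, 26.5, 32.2, 32.6 and 35.6 CPM in those labelled 5XFAD;Neu cKO. The 2 lowest libraries were of the latter group, and the rest were mixed (log2 fold change -0.10, interval -0.40 to 0.21, adjusted p = 0.958 in edgeR). Gnptg (ENSMUSG00000035521, chromosome 17, 25451197 to 25459144), a further subunit of it, was at 43.2, 45.0, 37.9, 51.3 and 27.2 CPM and at 39.8, 37.1, 42.4, 40.9 and 53.0 CPM. Its lowest library was 5XFAD replicate 5 and its highest 5XFAD;Neu cKO replicate 5 (log2 fold change 0.06, interval -0.23 to 0.36, adjusted p = 0.975 in edgeR).

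M6pr (ENSMUSG00000007458, chromosome 6, 122285616 to 122294639), the smaller, cation-dependent receptor of the tag, was at 50.6, 27.4, 50.1, 50.7 and 33.2 CPM in the 5XFAD libraries and 42.4, 47.8, 40.2, 53.5 and 37.8 CPM in those labelled 5XFAD;Neu cKO. Replicates 2 and 5 of the 5XFAD libraries were the lowest of all 10 (log2 fold change 0.05, interval -0.25 to 0.35, adjusted p = 0.981 in edgeR). Igf2r (ENSMUSG00000023830, chromosome 17, 12901293 to 12988614), the larger receptor, which also binds insulin-like growth factor 2, was at 58.9, 35.9, 44.0, 35.4 and 46.5 CPM and at 55.5, 58.7, 41.7, 40.7 and 39.2 CPM. High and low libraries occurred in both groups (log2 fold change 0.09, interval -0.20 to 0.38, adjusted p = 0.958 in edgeR). For these 5 genes the intervals lay within a 1.5-fold difference either way. M6pr overlaps Phc1, and Gnptg overlaps Tsr3 and Unkl, on the opposite strand, with 1188 and 734 counts.

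**Figure D3:**
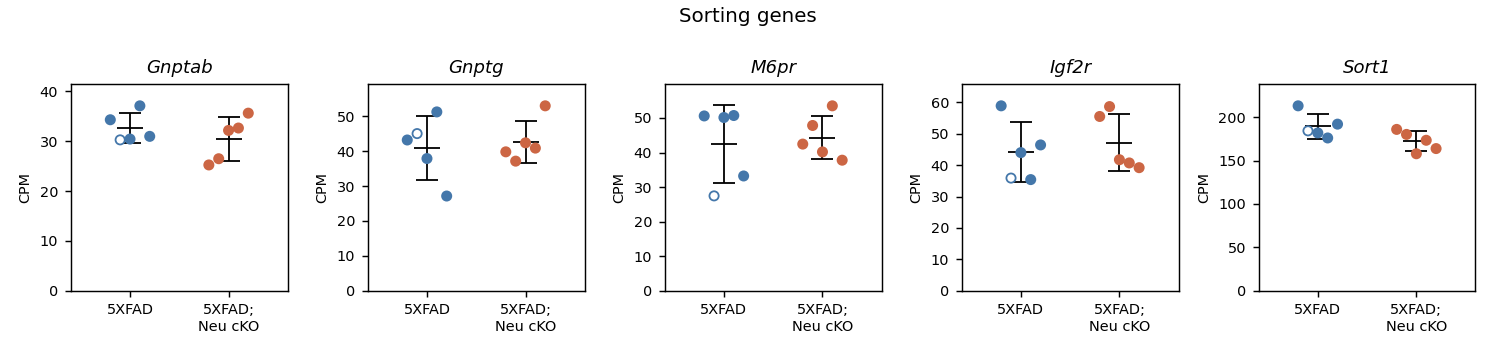
Levels (CPM) of the 5 sorting genes, 1 point per library, 5 per group, with the mean and SD as black bars, axes from 0 and 5XFAD replicate 2 as the open circle. The groups overlap in every panel, and the largest difference of means relative to the spread is that of Sort1, at 189 and 172 CPM.

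Other genes of the pathway, from lists written for this comparison, were read the same way. Of 23 further lysosomal hydrolases 20 were tested, 9 below 0 and 11 above with a median log2 fold change of 0.05, and none passed the adjusted threshold in edgeR, where 3 had an unadjusted p under 0.05. Pld3, a lysosomal nuclease, was at 237 ± 38.0 and 201 ± 20.3 CPM (log2 fold change -0.24, adjusted p = 0.449 in edgeR), and Naaa, an amidase of N-acylethanolamines, at 11.02 ± 1.74 and 16.1 ± 5.11 CPM (0.54, adjusted p = 0.540). Of 18 further genes of sorting and trafficking to the lysosome, 10 were below 0 and 8 above with a median of -0.0033, and none had an unadjusted p under 0.05. Of the transcription factors that bind the CLEAR element, Tfeb had a log2 fold change of -0.17, Tfe3 0.22 and Mitf 0.23, none with an unadjusted p under 0.05, and Tfec was counted 0 times.

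Cell type markers moved with the groups, and in bulk cortex fewer cells of a type and less RNA per cell cannot be told apart. Of 15 microglial markers 14 were tested, all 14 were below 0 with a median log2 fold change of -0.62, and 5 (C1qb, Tyrobp, Csf1r, C1qc and Cx3cr1) passed the adjusted threshold. Their summed levels, given above, did not overlap, and none of the 14 was at 0. Tyrobp, a microglial signalling adaptor, had a log2 fold change of -1.10 and Csf1r, the receptor on which microglia depend, -0.65, against -0.66 for Grn and -0.60 for Fuca1. Of 10 genes of plaque-associated microglia 8 were below 0 and 1 (Clec7a) passed, with summed levels of 102 to 168 and 90.5 to 147 CPM. Of 9 oligodendrocyte markers all 9 were below 0 and 1 (Mal) passed, with sums of 2092 to 3059 and 1844 to 2917 CPM, and of 9 astrocyte markers 8 were below 0 and 1 (Gfap) passed, with sums of 4374 to 5117 and 4245 to 4864 CPM. None of 6 excitatory neuron, 6 inhibitory neuron, 6 endothelial and 5 border macrophage markers passed the adjusted threshold in edgeR, where Gad1 and Vip had an unadjusted p under 0.05. The part of these cell types in the values of the 41 genes was not tested.

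**Figure D4:**
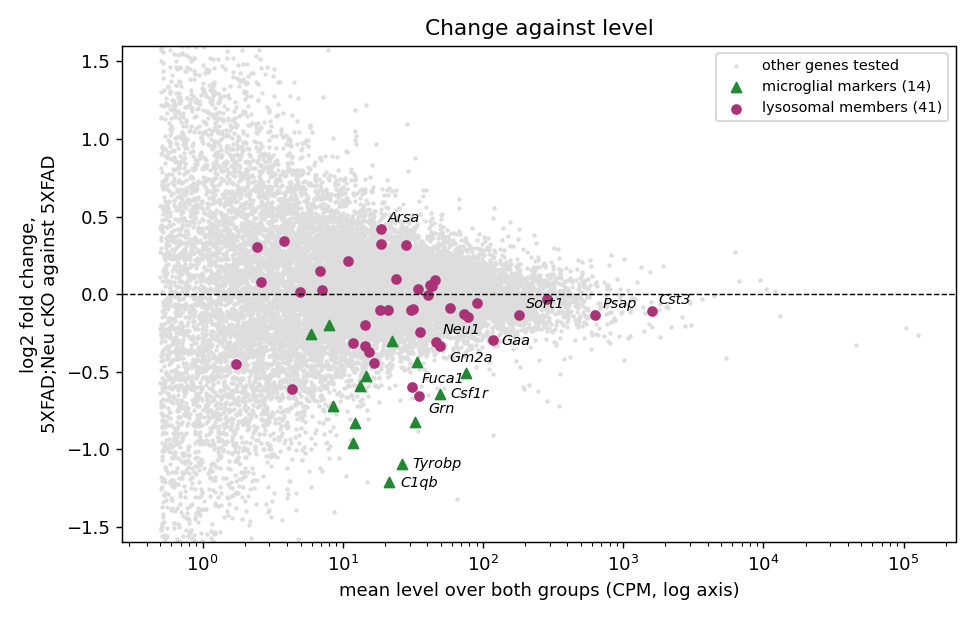
Log2 fold change of each gene (libraries labelled 5XFAD;Neu cKO against 5XFAD) by its mean level in CPM on a log axis, for the 41 lysosomal genes (circles), 14 microglial markers (triangles) and the other genes tested with a mean over 0.5 CPM (grey), of which 310 lie beyond the axis limits of 1.6. All triangles lie below 0, while the circles lie on both sides, with Grn and Fuca1 among the triangles and Cst3, Psap and Sort1 near 0.

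Within groups the libraries also differed. The highest value of the 10 was that of 5XFAD replicate 1 for 12 of the 41 genes and that of 5XFAD replicate 2 for 11, whereas 5XFAD;Neu cKO replicates 2 and 5 held the lowest value for 7 genes each. Summed over the 41 genes, the level was 3980 ± 332 CPM in the 5XFAD libraries and 3673 ± 253 CPM in those labelled 5XFAD;Neu cKO, and most of it came from Cst3 and Psap. By role, the sums were 241 ± 26.2 and 224 ± 9.32 CPM for the sphingolipid hydrolases, 358 ± 20.8 and 356 ± 6.99 CPM for the glycosaminoglycan enzymes and 232 ± 28.1 and 197 ± 8.26 CPM for the glycoprotein and glycogen enzymes. They were 364 ± 17.2 and 339 ± 13.5 CPM for the enzymes of proteins, lipids and DNA, 349 ± 30.3 and 337 ± 15.0 CPM for the sorting genes and 2435 ± 256 and 2220 ± 222 CPM for the activators and other soluble proteins. The enzymes of glycoproteins and glycogen, of which Gaa is the most abundant, had the largest relative difference of these 6 sums, which are given as a description.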

How the data were processed

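Cortical QuantSeq 3′ libraries of 10 female mice were analysed, 5 per group. The authors trimmed the reads with bbduk, aligned them to GRCm39 with STAR 2.7.3a and Ensembl annotation, and deposited counts per gene from HTSeq, whole numbers with no normalization. The submitters' processing notes name HTSeq 0.9.1, which differs from the study's methods, and the strand setting is not stated. The totals per library limit the precision of genes with few counts, and reads placed on no gene (31.3% to 39.9%) entered no total.

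GENCODE annotation of GRCm39 gave symbols for 52610 of 53700 identifiers. In R 4.3.3, edgeR 4.0.16 (TMM, quasi-likelihood test, group as the only term) was fitted to the 19268 genes with a total over 10, and adjusted p-values are Benjamini-Hochberg's over all of them. CPM are the counts over TMM-scaled library totals. Exact permutation tests used all 252 relabellings of log2 CPM with a prior count of 2. DESeq2 1.42.0, the study's tool, was an alternative, beside its size factors, other filters, a robust fit, leaving out mitochondrial genes, a replicate block and leaving out each library. The steps were tested on simulated counts. Replicates are separate libraries of a group by their labels. The p-values set the difference between the groups against the spread between those libraries.

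The members and lists were chosen with earlier results of these data known. All 41 members are accounted for, and values per library are given for those with an unadjusted p under 0.05 in edgeR, for those whose groups do not overlap and for the 5 sorting genes. Psap, outside that rule with an unadjusted p of 0.062 in edgeR and 0.024 in DESeq2, is given the same way. Of the further hydrolases and sorting genes, those with an unadjusted p under 0.05 are named, except 1 that is not reported here. Of the markers, those past the adjusted threshold are named, and other genes were named after their values were seen.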

Additional observations from a re-analysis of the deposited data

Results flagged for a closer look

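Of 82 groups of 5 libraries, 2 for each of the 41 genes, 7 held a library whose gap to its nearest neighbour was wide for the range of its group by Dixon's test, and chance gives about 1 in 20. In the 5XFAD libraries, Glb1 was at 23.5 CPM in replicate 2 with the next at 12.7, Cst3 at 2074 CPM in replicate 1 with the next at 1624, and Idua at 7.61 CPM in replicate 3 with the next at 4.71. In the libraries labelled 5XFAD;Neu cKO, Ppt2 was at 16.5 CPM in replicate 1, above the next at 13.1. In that group the lowest library stood apart for Arsa, at 16.5 CPM in replicate 3 with the next at 21.7, for Smpd1, at 58.9 CPM in replicate 5 with the next at 72.3, and for Scpep1, at 8.93 CPM in replicate 3 with the next at 13.98.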

How the results depend on the processing

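The median log2 fold change of the 41 genes stayed below 0 under all alternatives, with extremes of -0.13 (without 5XFAD replicate 3) and -0.07 (without 5XFAD replicate 2), and 5 to 8 genes had an unadjusted p under 0.05. The count past the adjusted threshold, 0, was 2 with no filter on low counts (Grn, adjusted p = 0.00624, and Fuca1, 0.0440, in edgeR), and 0 to 1 with a library left out. The cause was not tested. Genes whose groups did not overlap numbered 0 to 3 with a library left out, and were 3 without 5XFAD replicate 4 (7.32%, against 2.29% of all genes, a share that ran from 1.92% to 2.71% over the 10 libraries). Over all genes edgeR called 42, against 73 in DESeq2, 103 with no filter and 26 without 5XFAD replicate 2.

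Same-numbered libraries did not deviate together (correlations from -0.011 to 0.019), and 1 of 10 correlated best with its own number, so the numbers are not taken as pairs. With the replicate block edgeR called 112 genes and 1 of the 41 (Grn), and Idua (-0.010) and Lgmn (0.031) had the other sign. With a library left out, the log2 fold change crossed 0 for 11 genes, running from -0.18 to 0.054 for Acp2, -0.20 to 0.031 for Asah1, -0.10 to 0.36 for Dnase2a, -0.77 to 0.31 for Galns, -0.11 to 0.25 for Gla, -0.052 to 0.16 for Gnptg, -0.11 to 0.24 for Idua, -0.13 to 0.11 for Lgmn, -0.065 to 0.13 for M6pr, -0.0011 to 0.090 for Plbd2 and -0.030 to 0.20 for Siae.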
